A study of Mus musculus with 3 samples.

Results

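The cells described here are mammary tumour cells that had been in Matrigel for 3 or for 5 days, and the comparison asks how the same tumours' cells differed between those days. They were chosen from the deposited cell annotation: Matrigel as the matrix, day 3 or day 5, a mouse with cells on both days (mice 1 to 3), at least 5000 UMIs (unique molecular identifiers, 1 per captured transcript) and at least 1 UMI of Epcam, an epithelial adhesion gene. There were 397 such cells of 7620 in the series, 297 on day 3 and 100 on day 5. Of the 435 labelled cells, 22 had too few UMIs and 16 others had no Epcam UMI; 19 of the kept cells had only 1 or 2. The 378 day 3 Matrigel cells of mouse 4 had no day 5 partner and were not used.

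The tumours came from FVB mice carrying C3(1)-Tag, a transgene in which the rat C3(1) prostatein promoter drives a viral large T antigen, which binds p53 and Rb, in mammary epithelium. The animals were 25 to 30 weeks old with primary tumours of 20 mm. Fresh cell clusters were plated in Matrigel, or as organoids in collagen I, in DMEM/F12 with insulin, transferrin and selenium, antibiotics and 2.5 nM FGF2. Cells of 4T1, a mouse mammary carcinoma line grown on plastic in RPMI-1640 with 10% serum, passage 2, were added to each pool. Matrigel cells were freed with EDTA on ice and then TrypLE, tagged by condition with MULTI-seq lipid barcodes, pooled, sorted as live cells and run on droplet 3' chemistry. Each day was 1 pool and 1 labelled batch (batch 2 for day 3, batch 3 for day 5), so day, pool and batch cannot be told apart within Matrigel. The collagen cells of the same mice and the 4T1 cells passed through the same 2 pools, and their values are given beside the main lists. The replicate is the mouse, and the labels do not say whether a mouse had more than 1 culture per day.

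Matrigel is a laminin-rich basement membrane extract in which mammary epithelial cells form rounded colonies. As such colonies grow, oxygen and nutrients have to reach cells that no vessel serves. Cells short of oxygen stabilise the factor HIF, which switches on glycolysis, while NRF2 controls antioxidant and iron-handling genes and p53 controls arrest and death genes.

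Mice 1, 2 and 3 gave 46, 147 and 104 cells on day 3 and 12, 51 and 37 on day 5, so that the day 5 sum of mouse 1 rests on 12 cells. The median depth per cell was 36980.5, 37638 and 49470 UMIs on day 3 and 55190.5, 60985 and 56850 on day 5, higher on day 5 in all 3 mice. Below, numbers of cells with a transcript pool the mice and are not corrected for this depth unless stated. A transcript is more readily found in a deeper cell, so such numbers favour day 5. The pooled totals were 12554345 UMIs on day 3 and 5984284 on day 5. Only 4 cell barcodes were shared by the 2 pools. Collagen gave 2305 and 1038 cells and 4T1 184 and 19 cells by the same filters. The median depth of the 4T1 cells was 70524 UMIs on day 3 and 142627 on day 5. The summed level of 8 epithelial genes (Epcam, Krt8, Krt18, Krt14, Krt5, Cdh1, Cldn7 and Esrp1) was 5752 to 6229 CPM (counts per 1000000) on day 3 and 4733 to 6928 CPM on day 5; it is a description, since Epcam was used to choose the cells. The median share of UMIs from mitochondrial genes per cell was 3.96%, 3.73% and 3.86% on day 3 and 6.85%, 5.57% and 6.12% on day 5, higher on day 5 in every mouse; its part in the results was not tested.

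Some cells with an Epcam UMI also carried transcripts of other cell types. The 10 macrophage markers summed to 213, 160 and 8.65 CPM in mice 1, 2 and 3 on day 3 and to 1.61, 4.02 and 2.81 CPM on day 5. The 9 fibroblast markers summed to 193, 42.5 and 13.96 CPM on day 3 and to 14.5, 6.19 and 5.16 CPM on day 5. On day 5 Ptprc, C1qb, C1qc, Tyrobp and Adgre1 were at 0 in every mouse. In all, 21 day 3 cells and 4 day 5 cells had at least 3 macrophage or 5 fibroblast marker UMIs. For many genes that rest on them the share of UMIs in these cells is given, and for some the result without them. In such sums, fewer cells of a type and less RNA per cell cannot be told apart.

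Of 12009 genes tested, 1933 (16.1%) passed an adjusted p of 0.05 by edgeR's quasi-likelihood test, paired by mouse, with 823 (6.85%) higher and 1110 (9.24%) lower on day 5. These percentages are the background against which every list below is read. The median log2 change of all genes was -0.0002, and those in collagen and 4T1 were 0.02 and 0.07. Values per mouse are CPM scaled by TMM (trimmed mean of M values). The groups did not overlap for 1283 genes (10.7%) that were higher and 1467 (12.2%) that were lower on day 5. The count rested on all mice and on the pairing. Leaving out mouse 1, 2 or 3 gave 848, 759 or 531 genes, and the fit without the pairing gave 662. The spread was estimated from the sums of both matrices together, and the 6 Matrigel sums alone gave 539 genes. With each cell thinned to 5000 UMIs the count was 412.

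Genes of glycolysis and the hypoxia response were higher on day 5. Of 25 tested members of the list, 13 rose and none fell, and the median log2 change was 0.77. The median was 1.10, 0.81 and 0.31 in mice 1, 2 and 3, so mouse 3 moved least. The promoters of 4 genes that rose are printed to show the core letters that HIF is known to bind, ACGTG, or the close form GCGTG; matches on either strand are in capitals, with overlapping matches joined (CACGT and CACGC are their reverse complements). They are 300 bases long, 250 before and 50 after the start, from RefSeq on GRCm38.p6, and read in the direction of transcription.
Bnip3 (chr7:138909457-138909756, minus strand): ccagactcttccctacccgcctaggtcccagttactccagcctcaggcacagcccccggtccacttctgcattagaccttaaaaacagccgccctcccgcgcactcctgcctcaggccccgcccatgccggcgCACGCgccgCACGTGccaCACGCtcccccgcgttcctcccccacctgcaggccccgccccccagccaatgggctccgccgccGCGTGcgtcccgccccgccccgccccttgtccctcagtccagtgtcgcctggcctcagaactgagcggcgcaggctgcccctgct
Egln3 (chr12:54203825-54204124, minus strand): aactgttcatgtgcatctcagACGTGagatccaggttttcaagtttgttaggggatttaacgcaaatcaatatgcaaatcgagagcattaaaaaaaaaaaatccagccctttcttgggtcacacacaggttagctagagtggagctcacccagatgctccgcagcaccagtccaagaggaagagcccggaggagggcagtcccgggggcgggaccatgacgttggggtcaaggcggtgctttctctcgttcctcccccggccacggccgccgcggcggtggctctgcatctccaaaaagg
Ldha, first of 2 starts (chr7:46845554-46845853, plus strand): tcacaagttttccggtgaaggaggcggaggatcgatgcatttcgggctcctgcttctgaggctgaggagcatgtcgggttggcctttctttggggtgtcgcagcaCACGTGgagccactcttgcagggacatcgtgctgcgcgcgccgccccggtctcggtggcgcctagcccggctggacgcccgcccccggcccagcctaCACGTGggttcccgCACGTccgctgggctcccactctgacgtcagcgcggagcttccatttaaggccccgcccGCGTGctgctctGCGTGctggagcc
Pdk1, first of 2 starts (chr2:71872974-71873273, plus strand): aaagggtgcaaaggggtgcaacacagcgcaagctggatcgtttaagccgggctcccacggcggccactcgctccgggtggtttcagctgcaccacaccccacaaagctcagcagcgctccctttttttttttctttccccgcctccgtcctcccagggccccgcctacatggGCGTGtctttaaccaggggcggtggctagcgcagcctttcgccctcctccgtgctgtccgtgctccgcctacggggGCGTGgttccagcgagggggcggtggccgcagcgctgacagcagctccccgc
These windows held 5, 1, 7 and 2 matches in the order printed, and the second starts of Ldha and Pdk1, not printed, had 2 and 0. At least 1 match was present in 15 of 17 promoters (88.2%) of the 13 genes that rose, in 25 of 32 (78.1%) of 23 tested members with an entry, and in 43.8% of all 32851 promoters. A match describes letters and is not a measured binding site. The list was made of glycolysis and hypoxia genes, so its surplus over all promoters does not come from these data. Any role of HIF was not tested.

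Egln3, the oxygen-sensing prolyl hydroxylase that marks HIF for destruction and is itself a HIF target, was at 3.93, 5.17 and 4.62 CPM in mice 1, 2 and 3 on day 3 and at 100.1, 26.0 and 40.5 CPM on day 5. Every day 5 value was above every day 3 value, and the log2 change was 3.16 (SE 0.37, adjusted p = 0.00203). The transcript was found in 45 of 297 cells on day 3 and 59 of 100 on day 5, and the call held in all 17 alternative settings. Bnip3, a mitophagy receptor, was at 14.6, 4.99 and 7.48 CPM on day 3 and 83.1, 26.5 and 17.0 CPM on day 5, again without overlap (log2 change 2.06, SE 0.28, adjusted p = 0.00326). Pdk1, the kinase that keeps pyruvate out of mitochondria, was at 5.05, 2.85 and 2.64 CPM and then 15.4, 7.37 and 7.06 CPM (log2 change 1.44, adjusted p = 0.0206). Its day 3 sums held few reads, yet all 3 mice moved the same way.

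The enzymes of the pathway itself had smaller log2 changes. Ldha, which turns pyruvate into lactate, was at 924, 439 and 823 CPM on day 3 and 1462, 1120.2 and 1163 CPM on day 5 (log2 change 0.84, SE 0.15, adjusted p = 0.00916). Pfkl and Pfkp, subunits of the committing enzyme phosphofructokinase, rose by log2 changes of 0.87 and 0.88, and Pgk1, Eno1, Pgam1 and Gapdh by 0.83, 0.74, 0.50 and 0.58. Gapdh was higher in mice 1 and 2 but not in mouse 3, at 1435, 1162 and 3418 CPM on day 3 and 2729, 2042 and 3407 CPM on day 5, and its adjusted p was 0.0412. The carbonic anhydrases Car9 and Car12, which handle acid at the cell surface, rose by 1.55 and 2.30. Car12 was not higher in mouse 3, with 6.73, 3.21 and 6.16 CPM on day 3 and 46.2, 36.3 and 5.65 CPM on day 5. P4ha1, a collagen prolyl hydroxylase, was the other member that rose (log2 change 0.77).

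Other members did not pass. Vegfa, the vascular growth factor, was at 10.1, 20.3 and 16.9 CPM and then 50.8, 25.4 and 13.2 CPM (log2 change 0.53, adjusted p = 0.368), high on day 5 in mouse 1 alone. Slc2a1, the glucose transporter, had a log2 change of 0.47 (adjusted p = 0.101), and Slc16a3, a lactate exporter, one of 1.12 (adjusted p = 0.0509), with mouse 1 going from 24.1 to 128 CPM. Without mouse 1 the list had 4 genes that rose, without mouse 2 it had 7, without mouse 3 it had 12, and without the pairing 2. Outside the list, Ndufa4l2, a mitochondrial protein linked to hypoxia, had a log2 change of 4.03 (adjusted p = 0.0132), at 0, 3.21 and 0 CPM and then 114, 17.7 and 0.471 CPM. It came from 3 cells on day 3 and 6 on day 5, and 88.9% of the day 3 UMIs lay in cells with macrophage or fibroblast markers. The call was lost without mouse 3 and without the pairing.

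The same list was also higher in the other cells of these pools. In collagen 9 of 25 members rose and none fell (background 6.3% and 7.47% of genes), with a median of 0.51. The 4T1 cells, with 1 sum per pool and no test, had a median log2 change of 1.01, and 13 of 25 members were past a doubling on log2 of CPM plus 5, against 4.63% of all genes upward and 1.29% downward. No member passed the test of the difference between the Matrigel and collagen changes (smallest adjusted p = 0.133).

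**Figure D1:**
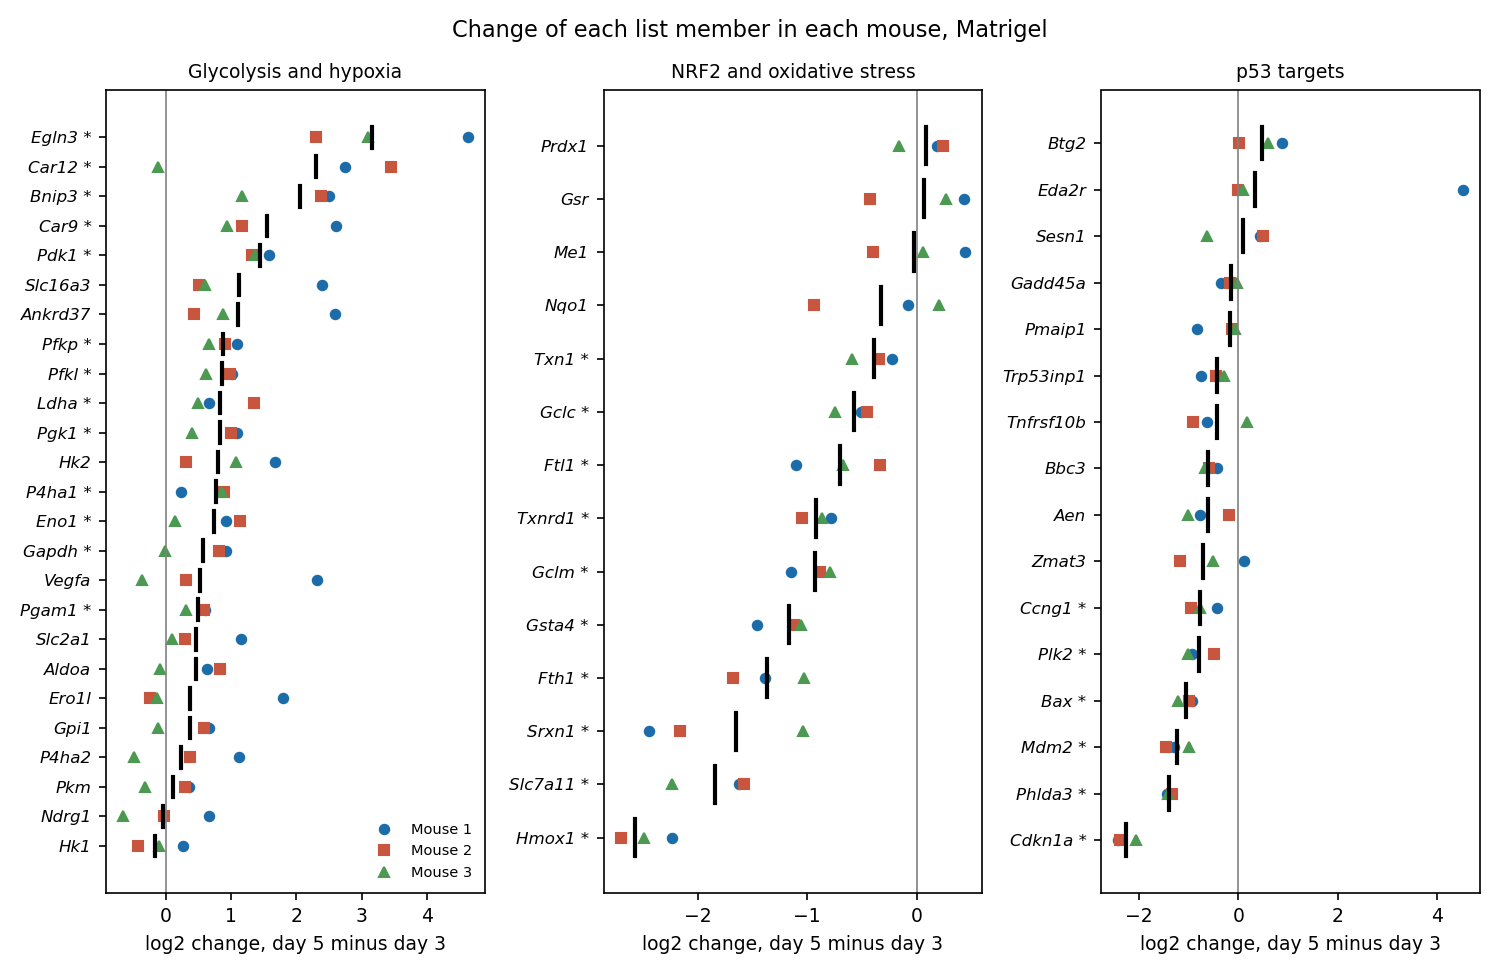
The horizontal axis is the log2 change from day 3 to day 5 and the points are mice 1, 2 and 3; the black bar is the fitted change and an asterisk marks an adjusted p under 0.05. Most hypoxia genes lie right of 0, with the lowest median in mouse 3, while 10 of 14 NRF2 genes and 6 of 16 p53 targets fell.

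NRF2 and oxidative stress genes were lower on day 5. Of 14 tested members 10 fell and none rose, with a median log2 change of -0.81 and medians of -0.94, -0.91 and -0.77 in mice 1, 2 and 3. The 10 were 7, 8 and 7 without mouse 1, 2 and 3, and 5 without the pairing or with thinned cells. Hmox1, which breaks down heme and releases its iron, was at 65.7, 292 and 149 CPM on day 3 and 13.9, 44.8 and 26.4 CPM on day 5. The groups did not overlap, and the log2 change was -2.57 (SE 0.12, adjusted p = 2.8e-05). A single cell held 28.4% of the day 3 UMIs, but 242 of 297 cells had the transcript, against 63 of 100 on day 5. Without the cells that carried macrophage or fibroblast markers the log2 change was -2.42.

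Fth1 and Ftl1 encode the ferritin chains that store iron. Fth1, among the most abundant transcripts, was at 13106, 14607 and 17645 CPM on day 3 and 5019.6, 4570.4 and 8633 CPM on day 5 (log2 change -1.36, SE 0.12, adjusted p = 0.00078). Ftl1 was at 3152, 2618 and 3840.1 CPM and then 1472, 2071 and 2402 CPM (log2 change -0.70, adjusted p = 0.0102). Every mouse had less of both transcripts on day 5. The 21 day 3 cells with macrophage or fibroblast markers held 18.07% of the Fth1 and 17.75% of the Ftl1 UMIs of that day. The 4 such cells of day 5 held 2.4% and 3.23%.

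The glutathione and thioredoxin branches fell as well. Gclm, the regulatory subunit of glutathione synthesis, was at 328, 371 and 423 CPM and then 148, 201 and 244 CPM (log2 change -0.93, adjusted p = 0.00154), and the catalytic subunit Gclc changed by -0.57. Slc7a11, the cystine importer, was at 38.2, 48.8 and 64.7 CPM and then 12.3, 16.2 and 13.7 CPM (log2 change -1.84, adjusted p = 0.00417), and was found in 119 of 297 and 25 of 100 cells. Srxn1 (sulfiredoxin) changed by -1.65, Gsta4 (a glutathione transferase) by -1.16, Txnrd1 (thioredoxin reductase) by -0.92 and Txn1 (thioredoxin) by -0.39. The cells with macrophage or fibroblast markers held 21.7% of the day 3 UMIs of Slc7a11, 15.47% of Gsta4, 14.6% of Srxn1, 9.74% of Gclm and 4.63% of Txn1. Nqo1, a quinone reductase, was at 34.2, 89.4 and 72.4 CPM and 32.3, 46.6 and 83.3 CPM and did not pass (adjusted p = 0.329), nor did Prdx1, Gsr and Me1.

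Promoters of 2 genes that fell are printed for the letters TGACNNNGC, a core of the antioxidant response element, in capitals where they match (both matches here are on the opposite strand).
Srxn1 (chr2:152105274-152105573, plus strand): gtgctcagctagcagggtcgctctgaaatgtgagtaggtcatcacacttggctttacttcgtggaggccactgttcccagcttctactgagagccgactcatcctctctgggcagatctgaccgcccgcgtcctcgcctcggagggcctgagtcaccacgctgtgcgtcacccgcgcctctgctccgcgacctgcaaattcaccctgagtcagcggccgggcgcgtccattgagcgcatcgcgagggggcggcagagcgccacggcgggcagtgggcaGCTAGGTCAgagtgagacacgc
Gclm (chr3:122245307-122245606, plus strand): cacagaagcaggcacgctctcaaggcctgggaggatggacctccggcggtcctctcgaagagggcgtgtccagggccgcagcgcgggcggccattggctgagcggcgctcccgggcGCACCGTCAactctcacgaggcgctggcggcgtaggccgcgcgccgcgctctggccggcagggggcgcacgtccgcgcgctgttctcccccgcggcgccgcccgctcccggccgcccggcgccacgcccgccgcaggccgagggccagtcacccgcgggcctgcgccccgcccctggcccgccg
The letters were in 3 of 10 promoters (30.0%) of the 7 genes that fell and had an entry, in 5 of 14 (35.7%) of the 10 tested members with one, and in 12.4% of all promoters. This list was likewise made of NRF2 and oxidative stress genes, and any role of NRF2 was not tested.

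In the other cells of these pools, collagen had 5 of 14 members lower and a median of -0.24, and 4T1 had a median of 0.11, with 2 members past a doubling and none past a halving. Hmox1 was 1 of 3 genes of all those tested (0.025%) whose change differed between the matrices. In collagen it was at 64.4, 80.5 and 147 CPM on day 3 and 42.3, 49.2 and 83.2 CPM on day 5 (log2 change -0.72, adjusted p = 0.00418). The Matrigel change minus the collagen change was -1.86 (SE 0.15, adjusted p = 0.0116). In 4T1 it was 28.2 and 15.4 CPM. Slc7a11 and Srxn1 had log2 changes of -0.16 and -0.23 in collagen (adjusted p = 0.619 and 0.376), and their differences of changes did not pass (adjusted p = 0.112 and 0.134).

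Targets of p53 were lower on day 5 too, with 6 of 16 fallen, none risen and a median log2 change of -0.61. Without the pairing 3 fell, and without mouse 3 it was 4. All these tumours carry the T antigen that binds p53. Cdkn1a, the cell cycle inhibitor p21, was at 314, 1003 and 528 CPM on day 3 and 58.5, 191 and 126 CPM on day 5 (log2 change -2.28, SE 0.13, adjusted p = 0.000112). Mouse 2 was highest and mouse 1 lowest on both days, and the groups did not overlap. The transcript was in 259 of 297 cells on day 3 and in 59 of 100 on day 5, where 1 cell held 38.0% of the UMIs.

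Phlda3, an inhibitor of AKT, was at 214, 463 and 336 CPM and then 78.5, 183 and 125 CPM (log2 change -1.40, adjusted p = 0.00019). Mdm2, the ligase that degrades p53, changed by -1.25 and Bax, a pore-forming death protein, by -1.05. Ccng1 and Plk2 were the other members that fell, with log2 changes of -0.77 and -0.79. Pmaip1, Gadd45a and Sesn1 had log2 changes between -0.17 and 0.08 and did not pass. In collagen 4 of 16 fell, Cdkn1a among them (-1.22, adjusted p = 0.0012), and the difference of the Cdkn1a changes did not pass (adjusted p = 0.0777). In 4T1 2 of 16 were past a halving, Gadd45a and Bbc3. The calls of Cdkn1a, Phlda3 and Bax held in every alternative setting.

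**Figure D2:**
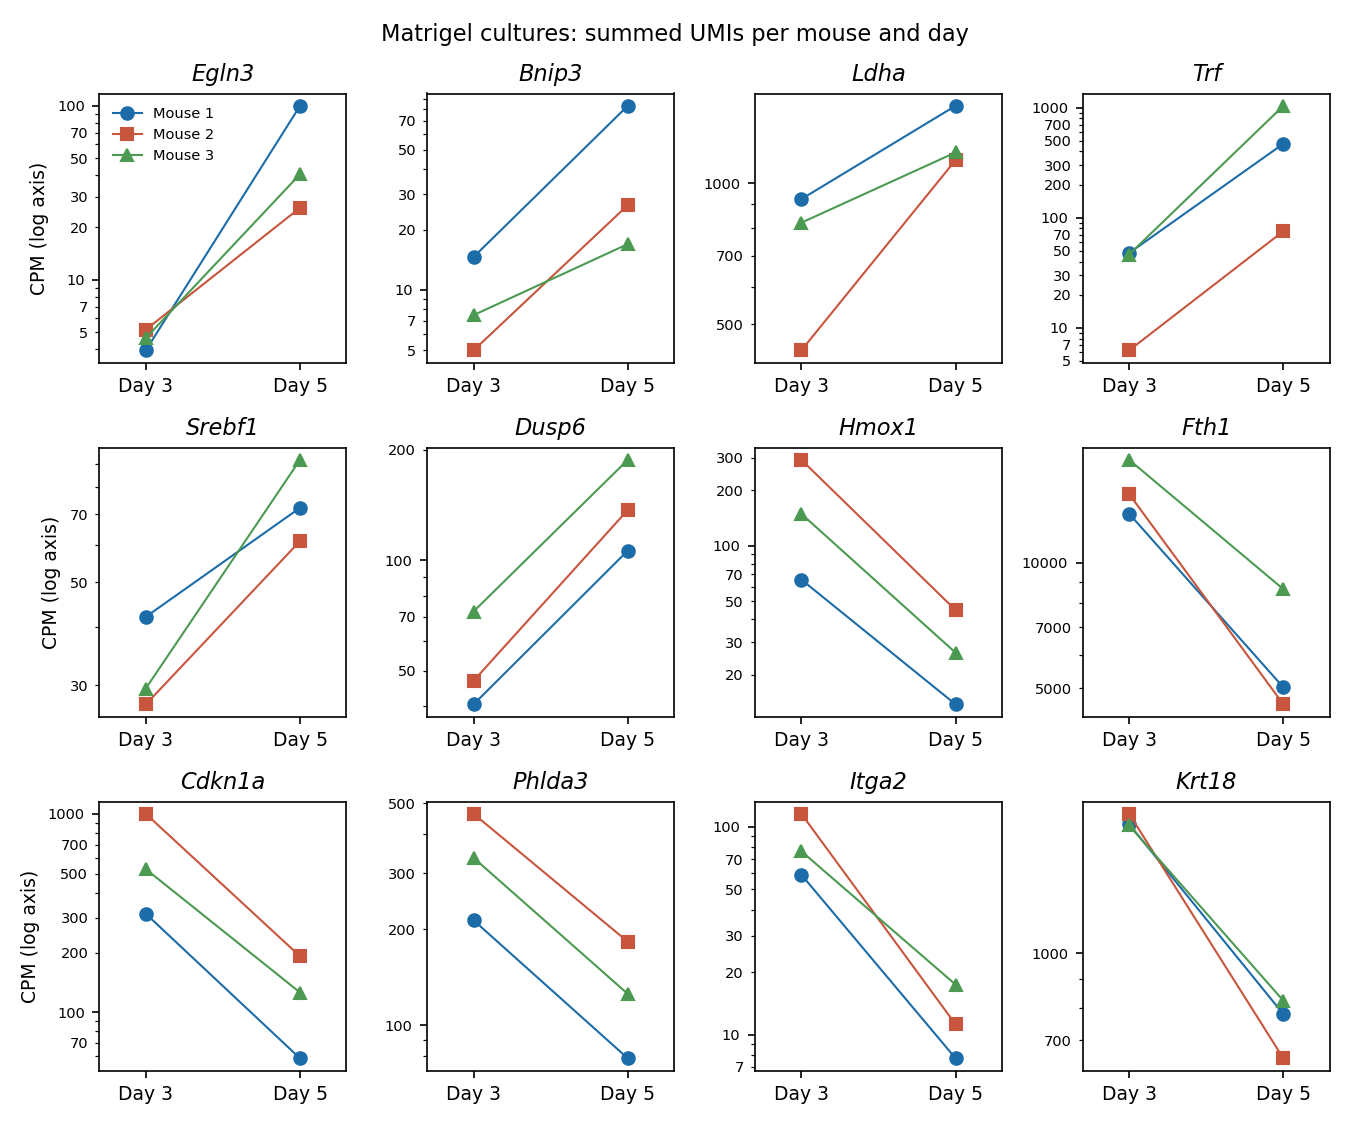
Each panel is 1 gene, with CPM on a log axis on day 3 and day 5 and a line for each mouse. The first 6 genes rose and the last 6 fell in every mouse, and no day 3 value overlaps a day 5 value.

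Lipid synthesis genes were higher on day 5. Of 15 genes of fatty acid synthesis and lipid storage 8 rose and 2 fell (median 0.42), and of 20 cholesterol synthesis genes 5 rose and none fell (median 0.40). The fatty acid calls rested on all mice and on the pairing, and the cholesterol calls on mice 1 and 2 and on the pairing. The 8 became 3, 2 and 1 without mouse 1, 2 and 3 and 2 without the pairing, and the 5 became 0, 0 and 6, and 0 without the pairing. Srebf1, the transcription factor of fatty acid synthesis, was at 42.1, 27.3 and 29.5 CPM on day 3 and 72.3, 61.4 and 91.8 CPM on day 5 (log2 change 1.25, SE 0.17, adjusted p = 0.00311). Its known targets Scd1 and Scd2 (desaturases), Elovl5 and Elovl6 (elongases), Acly and Fasn rose by log2 changes of 0.75, 0.72, 1.06, 0.85, 0.42 and 0.43, as did Acsl3 by 0.38. Acsl3 activates fatty acids. Insig1, the sterol sensor that holds SREBP back, was at 48.8, 33.7 and 78.1 CPM and then 151, 82.0 and 106 CPM (log2 change 1.06, adjusted p = 0.0145), and Idi1, Fdft1, Sqle and Lss rose by 0.59, 0.37, 0.63 and 0.83.

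Both members that fell serve lipid storage or transport rather than synthesis. Plin2, the coat protein of lipid droplets, was at 187, 223 and 181 CPM and then 93.9, 73.1 and 78.6 CPM, without overlap (log2 change -1.30, SE 0.13, adjusted p = 0.00143). Cells with macrophage or fibroblast markers held 16.85% of its day 3 UMIs. Fabp4, a fatty acid carrier of adipocytes and macrophages, had 219 UMIs on day 3, 81.7% of them in cells with macrophage or fibroblast markers, and 1 on day 5. Its call was lost without those cells. In collagen 5 members rose and 1 fell in the fatty acid list and none moved in the cholesterol list. In 4T1 the medians were 1.12 and 1.63, with 8 of 15 and 17 of 20 members past a doubling.

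**Figure D3:**
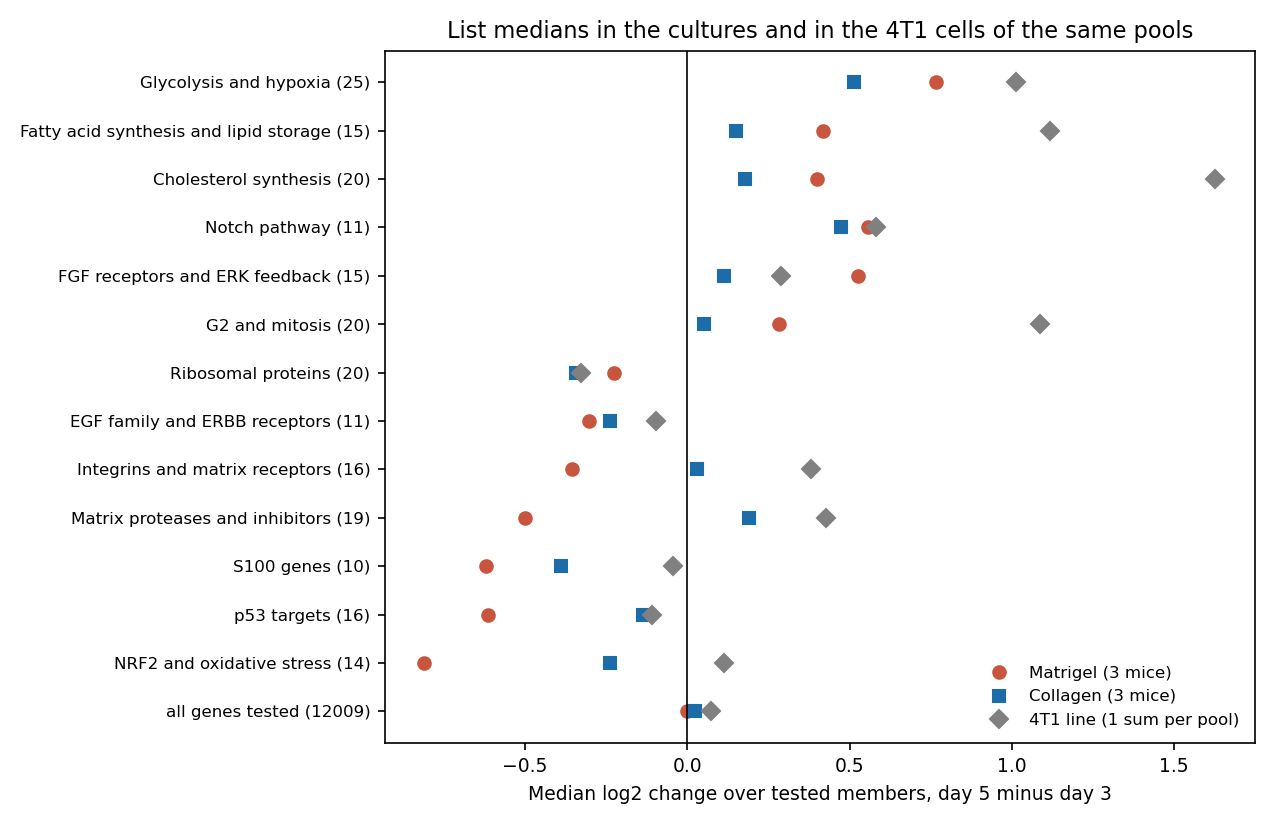
The horizontal axis is the median log2 change over the tested members of a list, with the number of members in brackets; circles are Matrigel, squares collagen and diamonds 4T1. Hypoxia and lipid lists lie right of 0 in all 3, while NRF2 and matrix protease lists lie left of 0 in Matrigel and right of 0 in 4T1.

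FGF2 was in the medium on both days, and among 15 genes of FGF receptors and ERK feedback 4 rose and 1 fell (median 0.53); without mouse 1 it was 2 and 1, and with thinned cells 1 and 1. Dusp6, a phosphatase that ERK signalling induces and that shuts ERK off, was at 40.4, 46.9 and 72.4 CPM on day 3 and 106, 137 and 188 CPM on day 5 (log2 change 1.45, SE 0.10, adjusted p = 0.00019). All 3 mice rose and the groups did not overlap. Etv5, a transcription factor downstream of FGF, rose by 1.34, Spry1, an inhibitor of receptor signalling, by 1.62, and the receptor Fgfr1 by 0.82, at 44.3, 55.8 and 44.5 CPM and then 67.7, 72.6 and 119 CPM. Dusp4, another ERK phosphatase, went the other way, at 26.9, 35.6 and 45.3 CPM and then 7.70, 12.4 and 15.5 CPM (log2 change -1.56, adjusted p = 0.00078). Collagen had the same 2 directions for Dusp6 (0.87, adjusted p = 0.0012) and Dusp4 (-0.58, adjusted p = 0.00819).

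Of 11 genes of the EGF family and its receptors 4 fell and none rose, and all 4 were ligands. Without the pairing none of the 4 passed, and with thinned cells 1 did, while 4 passed without any 1 of the mice. Areg (amphiregulin) was at 186, 1068 and 768 CPM and then 78.5, 433 and 175 CPM (log2 change -1.60, SE 0.17, adjusted p = 0.00154). Mouse 2 had the most on both days, and its day 5 level was above the day 3 level of mouse 1. Ereg, Hbegf and Btc changed by -1.56, -0.92 and -1.85, and each of the 4 also fell in collagen, with log2 changes of -0.81, -0.69, -0.66 and -0.66. The receptors Egfr, Erbb2 and Erbb3 had adjusted p of 0.199, 0.0927 and 0.767.

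Wnt and Notch genes rose in part. Of 16 Wnt genes 6 rose and 1 fell (median 0.47). The 6 became 4, 2 and 1 without mouse 1, 2 and 3, and 1 without the pairing. In collagen 3 rose and 1 fell (median 0.36), and the 4T1 median was 0.04. Sfrp1, a secreted Wnt antagonist, was at 48.3, 13.5 and 42.3 CPM and then 81.6, 66.1 and 125 CPM (log2 change 1.60, adjusted p = 0.00361), and Tcf7, Lgr4, Lgr6 and Ctnnb1 rose by 1.07, 0.98, 1.24 and 0.48. Lgr5, a stem cell receptor, had no UMI on day 3 and 40 UMIs in 7 cells of mice 2 and 3 on day 5, at least 28.0-fold higher against a floor of 3 counts over the day 3 group; its call was lost without the pairing. Wnt10a, a ligand, was at 26.9, 193 and 103 CPM and then 15.4, 139 and 50.9 CPM (log2 change -0.73, adjusted p = 0.0272). Of 11 Notch genes 2 rose and none fell: Hes1, at 69.0, 43.5 and 60.7 CPM and then 225, 105 and 249 CPM (log2 change 1.67, adjusted p = 0.00078), and Hey1, at 3.93, 1.07 and 6.16 CPM and then 40.0, 11.5 and 34.8 CPM (log2 change 2.94, adjusted p = 0.00388). Both are repressors that Notch switches on, and neither had overlapping groups. In collagen 4 of the 11 Notch genes rose and none fell (median 0.47). The 4T1 median was 0.58, with 3 members past a doubling. In 4T1 Hes1 was at 24.4 and 376 CPM and Hey1 had no UMI in either pool.

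The TGF-beta and activin list of 18 genes had 3 higher and 5 lower, and without mouse 3 none higher and 1 lower. The ligand subunits Tgfb3 and Inhbb rose, by 1.56 and 1.24, while Tgfb1 and Inhba fell, with log2 changes of -0.62 and -1.54. With thinned cells the Inhbb change was downward and did not pass. Inhba was lower in mice 2 and 3 but not in mouse 1, at 149, 512 and 339 CPM on day 3 and 157, 83.8 and 105 CPM on day 5. Smad7 and Pmepa1, inhibitors that the pathway induces, changed by -1.18 and -0.44, the activin antagonist Fst by -0.62, and Id2 by 0.84. In collagen 6 members rose and none fell.

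Genes by which cells hold and remodel matrix were lower on day 5. Of 16 integrins and matrix receptors 6 fell and 1 rose (median -0.35). The 6 became 4, 2 and 1 without mouse 1, 2 and 3, and 2 without the pairing. Itga2, whose protein pairs with Itgb1 as a collagen and laminin receptor, was at 58.9, 116 and 76.4 CPM on day 3 and 7.70, 11.2 and 17.4 CPM on day 5 (log2 change -2.80, SE 0.30, adjusted p = 0.00161). It was found in 175 of 297 cells and then in 24 of 100. Cd44, the hyaluronan receptor, was at 143, 231 and 174 CPM and then 89.3, 118 and 91.3 CPM (log2 change -0.88, adjusted p = 0.00328), and Itga5, Itgav, Itgb1 and Sdc1 changed by -2.15, -0.47, -0.56 and -0.37; Itga5 lost its call without mouse 2 and without mouse 3. Dag1, the laminin receptor dystroglycan, was the member that rose, at 71.3, 62.5 and 56.6 CPM and then 111, 100.3 and 112 CPM (log2 change 0.78, adjusted p = 0.00326). In collagen no member of this list passed; Itga2 had a log2 change there of -0.51 (adjusted p = 0.123), and the difference of its changes had an adjusted p of 0.0777. The list's 4T1 median was 0.38.

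Of 19 matrix proteases and inhibitors 7 fell and none rose (median -0.50). The 7 became 4, 2 and 2 without mouse 1, 2 and 3, 3 without the pairing and 1 with thinned cells. In collagen 2 rose and 1 fell (median 0.19), and in 4T1 the median was 0.43. Plau, the urokinase, was at 9.54, 25.8 and 14.7 CPM and then 7.70, 5.01 and 4.71 CPM (log2 change -1.87, adjusted p = 0.0054), and the inhibitor Timp2 at 209.9, 187 and 210.4 CPM and then 73.9, 119 and 144 CPM (log2 change -0.83, adjusted p = 0.0159). Several of the others came from few cells. One cell held 78.5% of the day 3 UMIs of Mmp3, 65.2% of those of Mmp9 and 34.7% of those of Mmp13. The cells with macrophage or fibroblast markers held 80.3% of the day 3 UMIs of Mmp3, 66.9% of Mmp13 and 39.4% of Serpinb2, and without those cells 5 of 19 members fell, with a median of -0.28. Mmp9 went from 241 UMIs in 13 cells to 1 UMI, lower by 115-fold (95% exact interval 20.4 to 4556), and Serpinb2 from 99 UMIs in 8 cells to 3, lower by 15.7-fold (95% exact interval 5.23 to 77.6); these intervals cover counting error only.

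Of 18 actin and motility genes 6 fell and none rose (median -0.27), which became 3, 4 and 1 without mouse 1, 2 and 3. In collagen 1 rose and 3 fell, and in 4T1 7 of 18 were past a doubling and none past a halving (median 0.81). Msn (moesin, a link from membrane to actin) was at 207, 409 and 258 CPM and then 149, 162 and 139.8 CPM (log2 change -0.94, adjusted p = 0.00548), and Tmsb10, Flna, Tln1, Arpc1b and Arpc2 changed by -0.92, -0.48, -0.48, -0.38 and -0.41. Of 10 S100 genes, small calcium-binding proteins, 6 fell and none rose (median -0.62), which became 6, 2 and 2 without mouse 1, 2 and 3, and 1 without the pairing. In collagen 1 rose and 3 fell, and the 4T1 median was -0.04. S100a6 was at 11247, 15774 and 19076 CPM and then 5855, 10876 and 10453 CPM (log2 change -0.78, adjusted p = 0.00302), each mouse lower on day 5, with its day 3 level in mouse 1 just above the highest day 5 value. S100a10, S100a11, S100a14, S100a16 and S100a8 changed by -0.72, -0.46, -1.18, -0.52 and -1.60.

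**Figure D4:**
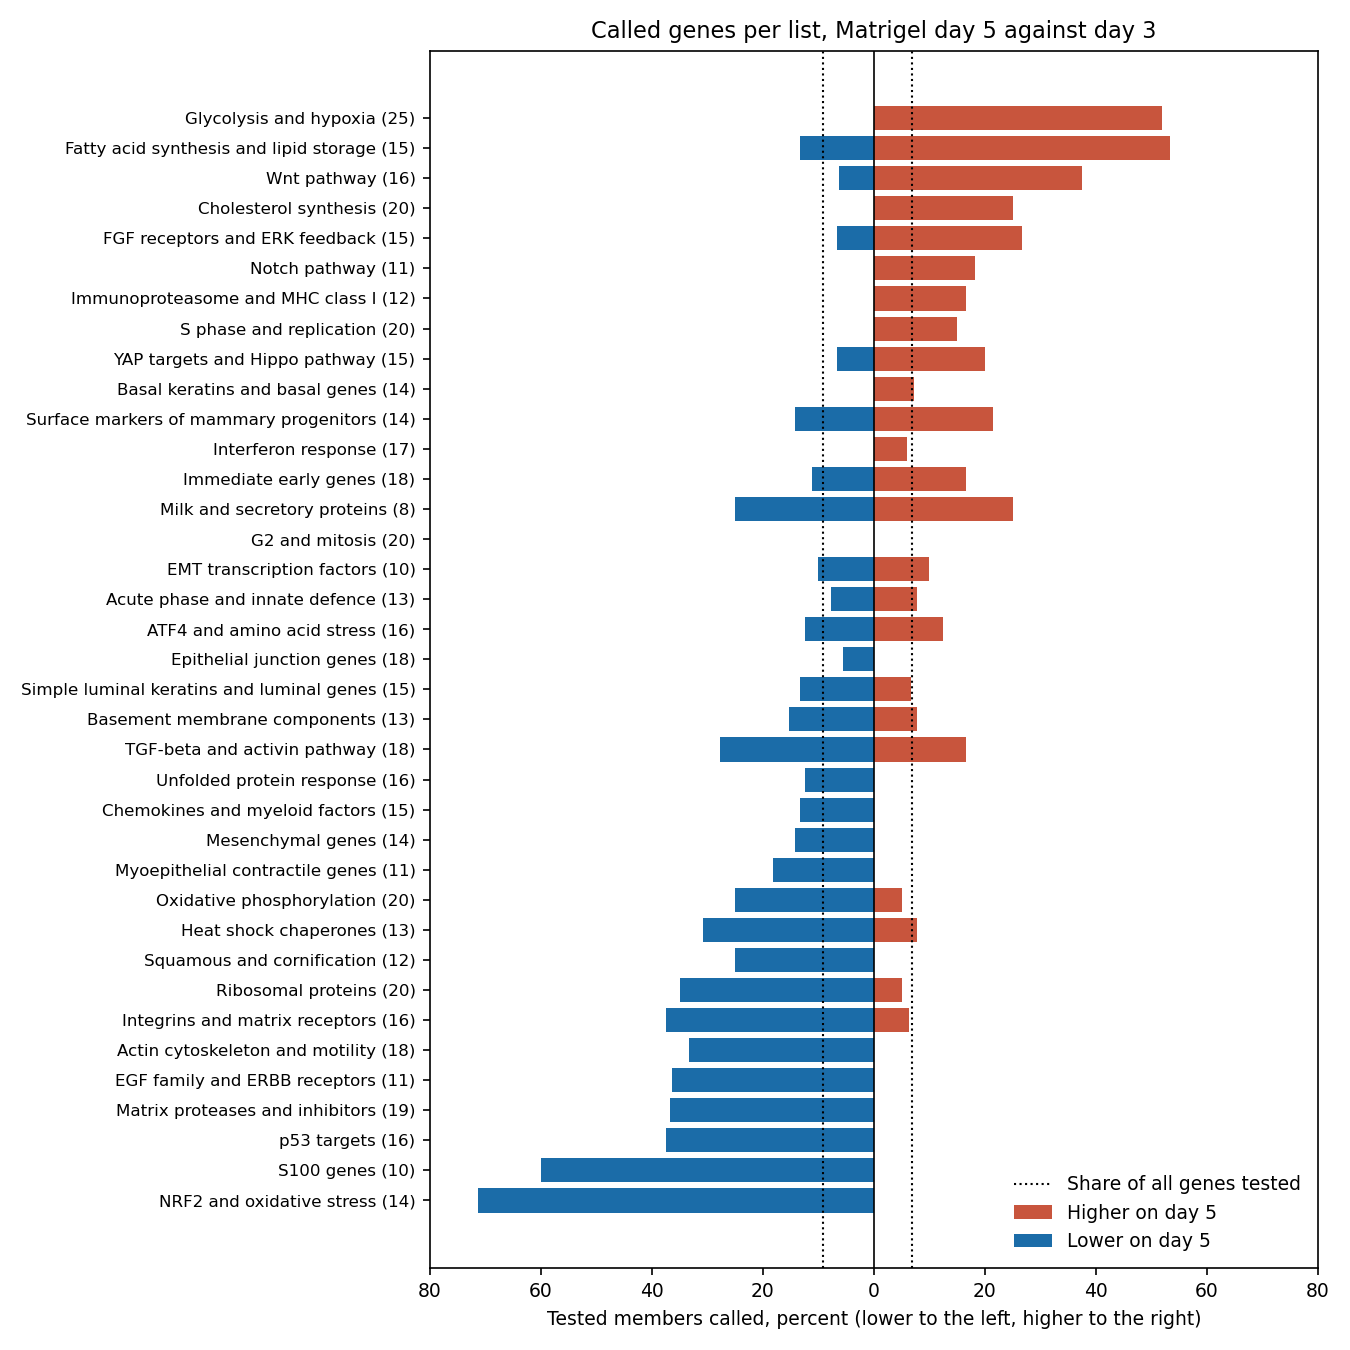
Bars give the percent of tested members (number in brackets) that passed the test, higher on day 5 to the right and lower to the left; dotted lines are the shares of all genes tested, 6.85% and 9.24%. Hypoxia and fatty acid lists extend furthest to the right, NRF2 and S100 lists furthest to the left.

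Of the lineage lists, 15 luminal genes had 1 higher and 2 lower, 14 basal genes 1 higher, and 11 myoepithelial genes 2 lower. The 12 squamous genes had 3 lower, and the 8 milk and secretory genes 2 higher and 2 lower. The 14 surface markers of mammary progenitors had 3 higher and 2 lower. Of all genes tested, 6.85% were higher and 9.24% lower. Krt18, a filament protein of luminal cells, was at 1702, 1776 and 1693 CPM on day 3 and 779, 649 and 823 CPM on day 5 (log2 change -1.21, SE 0.14, adjusted p = 0.0018). Its partner Krt8 was at 1129.7, 1174 and 1122 CPM and then 760.4, 472 and 714 CPM (log2 change -0.85, adjusted p = 0.0171), and that call was lost without mouse 1 and without mouse 3. Elf5, a luminal progenitor factor, rose by 0.96 (adjusted p = 0.0448), a call lost without any 1 of the mice. These were the 3 called of 15 luminal genes.

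Among 14 basal genes Cdh3 (P-cadherin) alone passed (log2 change 1.80, adjusted p = 0.0465), a call lost without mouse 1 and without mouse 2. Krt14, the basal keratin, was at 1756, 919 and 1775 CPM and 2526, 1817 and 1460.1 CPM (adjusted p = 0.291). Krt5 was at 111, 56.8 and 225 CPM and 517, 459 and 125 CPM (log2 change 1.53, adjusted p = 0.151), upward in mice 1 and 2 and downward in mouse 3. With each cell thinned to 5000 UMIs, the share of cells with a Krt14 UMI was 76.5% ± 5.58 (SD, n = 3) on day 3 and 87.8% ± 10.6 on day 5, an exact two-sided permutation p of 0.1 unpaired and 0.25 paired, the smallest that 3 mice allow. With another random thinning it was 71.7% and 77.2%, higher in 2 of 3 mice (exact permutation p = 0.5 unpaired and 0.5 paired). With at least 2 UMIs it was 59.8% and 61.9%, higher in 1 of 3 mice (exact permutation p = 0.9 and 1.0), and unthinned 89.7% on day 3, while every day 5 cell had a UMI. Among 13 macrophage marker cells 15.4% had a Krt14 UMI (95% exact interval 1.92% to 45.4%, 18790 median UMIs).

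Vim, the mesenchymal filament, was at 182, 259.9 and 211 CPM and 53.9, 272 and 185 CPM (adjusted p = 0.393). The markers of division Mki67 and Top2a had log2 changes of 0.27 and 0.29 and did not pass, with mouse 1 lower and mice 2 and 3 higher on day 5. Of 20 G2 and mitosis genes none passed (median 0.28), but 5 were higher with no filter on low counts, 3 without mouse 1 and 2 with thinned cells. Of 20 S phase genes Rrm1, Rrm2 and Ccne2 rose, by 0.48, 0.36 and 0.73, and none of the list passed without any 1 of the mice or without the pairing. In 4T1, 11 of 20 and 19 of 20 members of these lists were past a doubling. With cells thinned to 5000 UMIs, 31 of 184 4T1 cells had an Mki67 UMI on day 3 and 13 of 19 on day 5. Of 11 myoepithelial genes Acta2, smooth muscle actin, was at 24.7, 14.6 and 14.1 CPM and then 4.62, 6.19 and 2.35 CPM (log2 change -1.78, adjusted p = 0.00716), a call lost without the cells with macrophage or fibroblast markers and without mouse 3. Myh11, the other that fell, had 31 UMIs on day 3 and none on day 5, at least 4.93-fold lower. On day 3, 5 cells held 76.3% of the Acta2 UMIs, and 5 cells held 80.65% of the Myh11 UMIs. The share of cells with an Acta2 UMI was 3.59% on day 3 and 0.654% on day 5 with thinned cells, but 9.70% and 22.6% unthinned. In collagen 3 of the 11 myoepithelial genes rose and none fell (median 0.46, against -0.30 in Matrigel).

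Of the genes named by rank, Trf was among those that rose most. Trf, which encodes the iron carrier transferrin (chr9:103204001-103230444), was at 47.7, 6.24 and 46.2 CPM on day 3 and 469, 75.5 and 1038 CPM on day 5 (log2 change 3.88, SE 0.29, adjusted p = 0.000372). The mice ranged from 75.5 to 1038 CPM on day 5, with mouse 2 lowest on both days, yet every mouse rose and the groups did not overlap. It was found in 87 of 297 cells and then in 69 of 100. In collagen it rose by 2.78 (adjusted p = 0.000982), and in 4T1 it was at 0.826 and 0.75 CPM. Cp, the ferroxidase ceruloplasmin, was at 128, 102 and 99.5 CPM and then 493, 464 and 471 CPM, tight among mice (log2 change 2.13, SE 0.14, adjusted p = 0.00019), and rose by 0.91 in collagen.

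Cdk2ap1, an inhibitor of CDK2 (chr5:124345417-124363082), had one of the smallest adjusted p of all genes. It was at 17.4, 17.1 and 14.5 CPM and then 92.4, 108 and 82.4 CPM (log2 change 2.55, SE 0.11, adjusted p = 1.79e-05). It rose in collagen by 2.70 (difference of changes adjusted p = 0.744) and was at 4.80 and then 28.1 CPM in 4T1. Colca2 was at 1.68, 1.60 and 3.52 CPM and then 83.1, 39.8 and 14.6 CPM (log2 change 3.88, adjusted p = 0.00361), and 1 cell held 43.2% of its day 5 UMIs. Igfbp2, a binder of insulin-like growth factors, Crispld2, Col9a1 (a collagen chain), Emid1, Cbr2 (a carbonyl reductase), Lrg1 and Atp6v1b1 (a proton pump subunit) rose by 2.34, 2.29, 2.95, 2.24, 2.08, 1.99 and 1.84. Of these 7, Col9a1, Igfbp2, Emid1, Lrg1 and Atp6v1b1 lost the call when 1 of the mice was left out.

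Among the lowest changes were genes of myeloid cells, carried by few cells. Lyz2 (lysozyme) had 2263 UMIs on day 3, 98.5% of them in the 21 cells with macrophage or fibroblast markers, and 3 on day 5, lower by 359.6-fold (95% exact interval 123 to 1745). This interval covers counting error only: 5 cells held 90.9% of the day 3 UMIs, and mice 1, 2 and 3 had 1050, 1198 and 15. Pf4 had 1720 UMIs, 99.2% in the 21 cells, and then 1. The chemokines Ccl7 and Ccl12 had 712 and 397 UMIs and then none, at least 113-fold and 63.1-fold lower against a floor of 3 counts over the day 5 group. Of 8 tested macrophage markers 7 fell, and of 7 fibroblast markers 1, Dcn, of whose 496 day 3 UMIs 65.9% lay in 1 cell.

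Cxcl2, a neutrophil chemokine, was at 223, 137 and 454 CPM on day 3 and 23.1, 23.3 and 8.48 CPM on day 5 (log2 change -3.72, SE 0.49, adjusted p = 0.00311) and was found in 115 of 297 and 27 of 100 cells, with 8.14% of the day 3 UMIs in the 21 cells. A single cell held 31.8% and 5 cells held 57.0% of the day 3 UMIs. Without the cells that carried macrophage or fibroblast markers the log2 change of Cxcl2 was -3.56. A fit without the cells richest in Cxcl2 was not made. Flg (filaggrin), chosen for its difference from collagen, had 384 UMIs on day 3, all in mouse 2, of which 98.7% lay in 1 cell, and none on day 5. Leaving out the cells with macrophage or fibroblast markers gave 791 genes higher and 1048 lower over all genes, with 13 of 25 hypoxia genes higher, 9 of 14 NRF2 genes lower and 8 of 16 p53 targets lower.

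Collagen gave 1654 genes (13.8%) over the same days. Of the genes that rose in Matrigel 333 also rose in collagen (40.5% of the Matrigel and 44.0% of the collagen list), and 500 fell in both (45.0% and 55.7%); both matrices came from the same pools. In 4T1, 134 (16.3%) of the genes that rose in Matrigel were past a doubling and 43 (3.87%) of those that fell were past a halving, against 4.63% and 1.29% of all genes. The test of the difference of changes passed for 3 genes, 1 higher (0.00833%) and 2 lower (0.0167%) in Matrigel, and 1467 genes had an unadjusted p under 0.05. The edgeR count moved between 0 and 347 over the alternatives, with 154 by DESeq2. None of the 3 genes was called when any 1 of the mice was left out or by limma. Ramp1, a partner of the CGRP receptor (chr1:91179822-91225196), rose in Matrigel, at 13.5, 28.1 and 17.8 CPM and then 29.2, 52.5 and 51.3 CPM (log2 change 1.17), and fell in collagen, at 46.9, 69.3 and 69.5 CPM and then 23.1, 36.6 and 43.8 CPM (-0.86). The Matrigel change minus the collagen change was 2.02 for Ramp1 (SE 0.20, adjusted p = 0.0256). Mmp12, the macrophage elastase, was the third, with 295 UMIs in Matrigel on day 3, 95.9% in cells with macrophage or fibroblast markers, and none on day 5, while it rose in collagen (1.43, adjusted p = 0.0145). Without those cells its Matrigel call was lost.

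**Figure D5:**
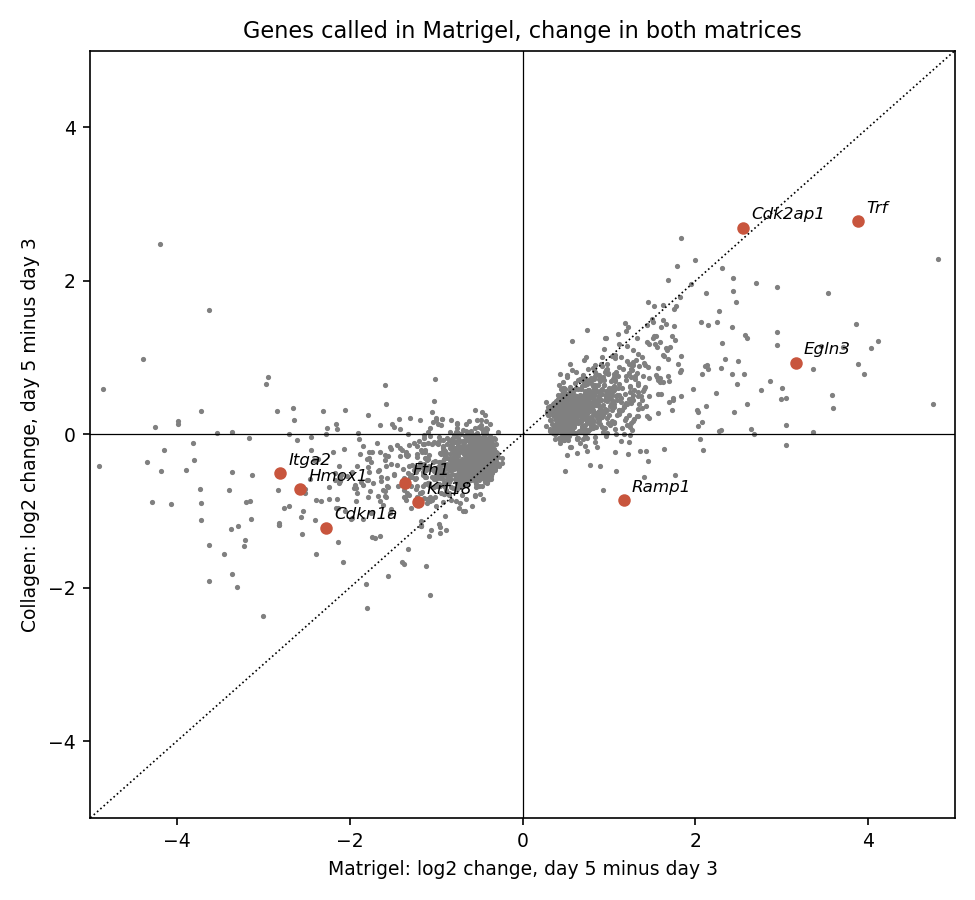
Each grey point is 1 of 1891 genes that passed in Matrigel, with the log2 change in Matrigel on the horizontal and in collagen on the vertical axis; 42 genes beyond a log2 change of 5 are not drawn and the dotted line marks equal changes. Cdk2ap1 lies near the line, Hmox1 and Itga2 lie above it on the left, and Ramp1 lies below 0 in collagen.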

How the data were processed

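The deposited matrix held whole-number UMI counts per gene and cell made by the authors; per the submitters' processing notes the tools were Cell Ranger 3.0.2 and Scanpy 1.4.4 on GRCm38 (mm10), with no roles given. Mouse and matrix came from the deposited cell annotation, whose UMI totals matched the matrix in every cell and whose fraction of mitochondrial UMIs is as the authors deposited it; 0 columns of sample values were left unused. The members, gene lists and comparisons were chosen with earlier results of these data known.

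For each mouse in each matrix on each day, the UMIs of all cells were added up, keeping cells with at least 5000 UMIs and 1 Epcam UMI (at least 10 cells per sum), giving 12 sums of which 6 were Matrigel. Genes passing edgeR's filterByExpr, by matrix and day, were fitted together by edgeR's quasi-likelihood test (edgeR 4.0.16, limma 3.58.1, R 4.3.3) with TMM scaling and mouse within matrix as a block, with Benjamini-Hochberg adjustment. The common dispersion was 0.0162, with 4 residual degrees of freedom. The mouse is the pair, and the deviations of its 2 days from the group means correlated at 0.333, 0.331 and 0.277 in Matrigel. 4T1 had 1 sum per day and no test: its change is on log2 of CPM plus 5, which understates low genes. Marker sums and folds against a floor use unscaled totals. DESeq2 1.42.0 was an alternative. Other steps used Python 3.11.15, NumPy 2.4.6, SciPy 1.17.1, pandas 2.3.3 and matplotlib 3.10.9.

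Named genes were the 15 with the highest and the 15 with the lowest log2 change among genes that passed, had at least 20 CPM on average on a day and the same sign in 3 mice (without mitochondrial, ribosomal and predicted genes), up to 4 of smallest p per list, state markers such as Krt14, and the 8 of smallest p in the difference test; list members outside the rule were named after their values were seen. On simulated data of 11851 genes the Matrigel test found 95% of 2-fold and 100% of 4-fold changes and called 9 of 11651 unchanged genes. The simulated counts used the fit's own dispersions, alike in both matrices, with changes only in genes of at least 20 CPM. So the simulation cannot show how the test does where Matrigel sums vary more than the fit assumes. No doublet caller was run. Of 20605 gene IDs 20574 matched GENCODE vM21. Near-identical copies (Hspa1b, ribosomal proteins) can share reads, so their values are uncertain. The edgeR p-values measure the spread of the day changes among these 3 mice, with the level of each mouse removed by the block. That spread was estimated from the 12 sums of both matrices together, not from Matrigel alone. With the 6 Matrigel sums alone, 539 genes passed instead of 1933.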

Additional observations from a re-analysis of the deposited data

Results flagged for a closer look

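These 3 genes changed differently in Matrigel and collagen by the test of the difference of changes (edgeR's quasi-likelihood test, Benjamini-Hochberg). Ramp1 rose in Matrigel and fell in collagen in all 3 mice, a difference of 2.02 on the log2 scale. Hmox1 fell in both, and the Matrigel change was lower by a log2 difference of -1.86. Mmp12 had a fitted difference of -12.84, which is no bound because every day 5 Matrigel sum was at 0; 95.9% of its day 3 UMIs lay in 21 cells that carried macrophage or fibroblast markers. None of the 3 differences was called without the pairing (569 genes with an unadjusted p under 0.05), without any 1 of the mice (1264, 1130 and 1259 genes) or by limma (1216 genes); without mouse 2 the 1 gene called was another.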

How the results depend on the processing

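The Matrigel count of 1933 genes was 662 with no replicate block, 539 with the 6 Matrigel sums alone, 412 with each cell thinned to 5000 UMIs, and 531 to 848 when 1 of the mice was left out; the cause was not tested, beyond the fewer sums, UMIs or genes these use. The count of 3 for the difference between matrices was 154 by DESeq2, 347 with no filter on low counts, 0 with no replicate block (569 genes at an unadjusted p under 0.05), 1 with the replicate block by mouse shared by both matrices, 0 to 1 when a mouse was left out (none of the 3 genes), 18 thinned, 6 with 2000 UMIs, 6 with no Epcam minimum, 5 with at least 3 Epcam UMIs, 12 without cells with macrophage or fibroblast markers, 8 without cells like 4T1, and 0 by limma (1216 at an unadjusted p under 0.05). The 711 genes past the fold in 4T1 were 1490 with 1 CPM added and 262 with 20. Of 138 named genes that passed, 81 lost the call with no replicate block, 42, 48 and 61 without mouse 1, 2 and 3, 53 of 116 with thinned cells, 32 of 117 with the 6 Matrigel sums alone, 32 with the shared block, 11 by limma and 3 by DESeq2; 1 reversed, Inhbb when thinned (-0.17, adjusted p = 0.911). With thinned cells, the share of cells with a UMI changed by -6.97 percentage points for Krt8 and 11.8 for Mki67. It changed by 5.85 for Top2a, -2.94 for Acta2 and 1.23 for Krt14 with Krt8. Reversed from these were Krt8 unthinned (3.36), Mki67 with another thinning (-3.09) and Top2a without mouse 3 (-7.05, and up to 19.1 over the mice left out). Acta2 reversed unthinned (12.9) and with another thinning (0.905). Krt14 with Krt8 reversed without mouse 1 (-7.03, and up to 5.73) and at 2 UMIs (-12.2). The sum of mouse 1 on day 5 rests on 12 cells, and day and pool cannot be told apart.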

Other observations

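Some transcripts moved alike in Matrigel, collagen and 4T1. The mitochondrially encoded mt-Nd3, a complex I subunit, was at 189, 165 and 179 CPM in Matrigel on day 3 and 748, 657 and 661 CPM on day 5 (log2 change 1.95, collagen 1.96, 4T1 2.30), while mt-Nd4l, a subunit of the same complex, fell (Matrigel -0.95, collagen -1.29, 4T1 -0.75). Of 13 mitochondrially encoded genes tested 9 rose and 2 fell. Among 93 ribosomal protein genes 8 rose and 32 fell in Matrigel (median -0.23), and 9 rose and 40 fell in collagen. Rps28 went up in all 3 (Matrigel 1.20, collagen 1.16, 4T1 1.54). Of 20 oxidative phosphorylation genes 1 rose and 5 fell.

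Sox9, a progenitor transcription factor, was at 113, 88.4 and 117 CPM and then 205, 257 and 193 CPM (log2 change 1.06, adjusted p = 0.00817) and was the 1 of 10 EMT factors that rose, while Sox4 fell. Of 13 heat shock chaperones Hspa1b rose (0.80) and 4 fell. Of 12 squamous genes 3 fell and none rose, Krt16 among them, at 19.6, 80.2 and 154 CPM and then 3.08, 23.0 and 81.9 CPM. Of 17 interferon genes Rsad2 alone passed, and 1 cell held 99.0% of its day 5 UMIs. Of 18 immediate early genes 3 rose (Egr2, Nr4a1 and Zfp36) and 2 fell (Fosl1 and Klf4), and of 15 YAP and Hippo genes 3 rose and 1 fell. Of 16 unfolded protein response genes 2 fell, and of 16 ATF4 genes 2 rose and 2 fell. Of 14 mesenchymal genes 2 fell in Matrigel, with a median of -0.39, and 2 rose in collagen, with a median of 0.65. The Matrigel median was near 0 in some settings: 0.07 with at least 3 Epcam UMIs, 0.06 with the 6 Matrigel sums alone, 0.02 with at least 20 CPM and -0.07 without the cells with macrophage or fibroblast markers.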
